A study of Mus musculus with 6 samples.

Results

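The Msx, Dlx and Pitx1 homeobox genes of the mouse were followed through the E14.5 lacrimal gland bud. The 9 members, Msx1, Msx2, Dlx1, Dlx2, Dlx3, Dlx4, Dlx5, Dlx6 and Pitx1, were taken by gene symbol from 23420 symbols in the count tables, as a family list and without a cutoff on their values. The study compared 3 control and 3 Pea3 TKO samples of lacrimal gland epithelium, all at E14.5 and on a mixed background, to ask which genes depend on the Pea3 family of ETS transcription factors, which act downstream of FGF signaling. The control embryos carried the genotype Le-Cre (their titles read WT), and the mutant embryos carried Le-cre, Pea3-/-, Ermfl/fl and Er81fl/fl. Both groups therefore carried the Cre transgene, which is driven by a Pax6 enhancer active in ocular surface ectoderm. Pea3 (Etv4) was null in every cell of the mutants, whereas Erm (Etv5) and Er81 (Etv1) were deleted only where the transgene was active. Nothing in the labels says whether the samples of a group came from separate embryos, so p-values measure the spread between these samples, which may be partly technical.

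The members are transcription factors that bind DNA through a homeodomain. Msx1 and Msx2 are mostly repressors, are classical targets of BMP signaling, and act in tooth, skull and eyelid development. The Dlx genes are relatives of fly Distal-less and lie in 3 neighbouring pairs whose enhancers are often shared within a pair. Dlx1 and Dlx2 act in forebrain interneurons and the upper jaw, Dlx5 and Dlx6 in the lower jaw downstream of endothelin signaling, and Dlx3 and Dlx4 mainly in surface ectoderm and placenta, where Dlx3 drives epidermal and hair differentiation. Pitx1 acts in the hindlimb, the pituitary and the oral ectoderm.

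The recognition helix of the homeodomain sits in the major groove of DNA, and its residue 50 sets Pitx1 apart from the Msx and Dlx genes. The coding sequence for homeodomain residues 42 to 58 is printed for 5 of the members whose counts carry the results, 5′ to 3′ on the strand of the gene, from GENCODE M21 transcripts on GRCm38, with the codon for residue 50 in capitals.
Msx2 (chr13:53468376-53468426, minus strand): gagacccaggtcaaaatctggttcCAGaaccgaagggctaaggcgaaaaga
Dlx3 (chr11:95121890-95123450, plus strand, spliced): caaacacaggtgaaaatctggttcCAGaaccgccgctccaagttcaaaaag
Dlx4 (chr11:95141428-95141797, minus strand, spliced): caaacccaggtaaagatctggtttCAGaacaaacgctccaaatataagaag
Dlx5 (chr6:6878447-6879534, minus strand, spliced): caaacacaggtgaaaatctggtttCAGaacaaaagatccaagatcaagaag
Pitx1 (chr13:55826576-55828454, minus strand, spliced): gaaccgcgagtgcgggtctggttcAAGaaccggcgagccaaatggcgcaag
The 8 Msx and Dlx genes have CAG (glutamine) at that codon and Pitx1 has AAG (lysine), the residue by which bicoid-type homeodomains select their sites. Over the 180 bases of the homeobox, identity was 82.2% between Msx1 and Msx2, 66.1% to 81.7% among the Dlx genes, 54.4% to 65.0% between Msx and Dlx genes, and 46.7% to 55.0% between Pitx1 and the rest. The longest stretch of identical bases shared by the transcripts of any pair of members was 44 bases, below the 100-base reads given in the labels.

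Msx1 lies at chr5:37820485-37824583 and Msx2 at chr13:53466884-53473074, both on the minus strand. Dlx3 (chr11:95120119-95125296, plus strand) and Dlx4 (chr11:95140447-95146263, minus strand) point towards each other across 15150 bases. Dlx1 (chr2:71528113-71533981, plus strand) and Dlx2 (chr2:71543408-71546754, minus strand) do so across 9426 bases. Dlx6 (chr6:6863334-6868568, plus strand) and Dlx5 (chr6:6877805-6882085, minus strand) lie 9236 bases apart, and Pitx1 is at chr13:55825051-55836192 on the minus strand.

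Library totals were 14194775 to 17860140 counts, at which 3 counts, used here as the detection floor, corresponded to 0.169 to 0.210 CPM. CPM is counts per 1e+06 counts of the TMM-adjusted library, and values are means ± SD of n = 3. Intervals on single libraries are exact 95% binomial intervals, which cover counting error only because the RNA was amplified without molecular identifiers. The targeted genes were first checked in every sample. Etv5 had 961, 1009 and 1202 CPM in control replicates 1, 2 and 3 and 88.1, 152 and 177 CPM in Pea3 TKO replicates 1, 2 and 3, Etv4 had 129 to 184 CPM against 10.8 to 28.4 CPM, and Etv1 had 28.7 to 33.9 CPM against 9.20 to 9.98 CPM. All 3 were lower in every Pea3 TKO sample, by 2.93, 2.95 and 1.74 on the log2 scale with SE 0.24, 0.31 and 0.20, although counts per gene do not separate deleted from remaining exons. The samples also differed in embryo sex. The mean log2(CPM + 1) of the Y-linked genes was 4.97 to 5.32 in the controls and 5.13 in Pea3 TKO replicate 3, but 0.144 and 0.0715 in Pea3 TKO replicates 1 and 2.

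Among the 9 members, Dlx3 had the highest level, Pitx1 alone passed the test, being higher in Pea3 TKO, and Dlx1 and Dlx6 had no count in any library. A low-count filter left 3 members to be tested, namely Dlx3, Dlx4 and Pitx1. Pitx1 was below the cutoff of the filter in every control library, so it was tested only through the Pea3 TKO libraries, where it was high. Msx1, counted in controls alone, did not pass the filter and could not be called lower. By edgeR's quasi-likelihood test with Benjamini-Hochberg adjustment over the 13087 genes tested, Pitx1 was higher and none of the 3 was lower. Over all genes tested 13.6% were called higher and 11.3% lower, 25% in all, so 1 call among 3 genes is near the background. The members summed to 18.6, 12.4 and 8.25 CPM in control replicates 1, 2 and 3 and to 40.9, 29.5 and 16.3 CPM in Pea3 TKO replicates 1, 2 and 3. The lowest Pea3 TKO sum was below the highest control sum, and most of each sum was Dlx3.

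**Figure D1:**
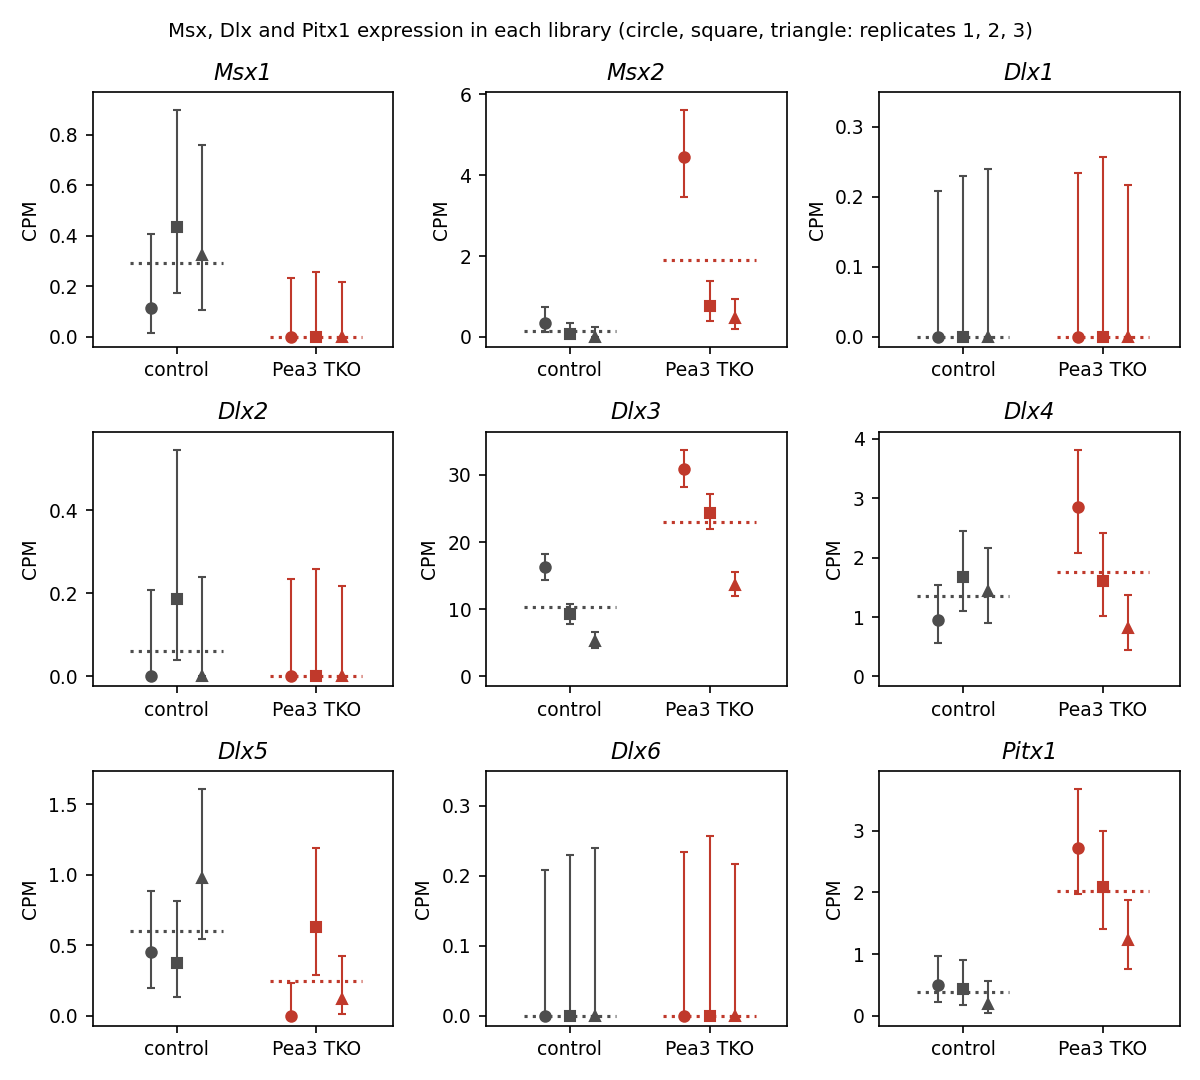
Expression of the 9 members in each library in CPM (vertical axis, a separate scale for each gene), with exact 95% counting intervals as bars and the group mean as a dotted line, for control (grey) and Pea3 TKO (red) replicates 1, 2 and 3 (circle, square, triangle). Pitx1 and Msx2 were higher and Msx1 was lower in all Pea3 TKO libraries, while the groups overlapped for Dlx3, Dlx4 and Dlx5, and Msx2 in Pea3 TKO replicate 1 stood at 4.44 CPM.

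Pitx1, the factor of hindlimb and oral ectoderm, had 9, 7 and 3 counts in control replicates 1, 2 and 3 and 43, 30 and 21 counts in Pea3 TKO replicates 1, 2 and 3. These counts corresponded to 0.507, 0.436 and 0.195 CPM in the controls and to 2.73, 2.10 and 1.23 CPM in Pea3 TKO. Every Pea3 TKO library lay above every control library, and control replicate 3 was at the detection floor. The mean rose from 0.379 ± 0.164 to 2.02 ± 0.750 CPM, a log2 fold change of 2.38 with SE 0.76 (95% interval 0.67 to 4.09, adjusted p = 0.0464 by edgeR's quasi-likelihood test). In fold terms the interval ran from 1.60 to 17.0. The call lay close to the threshold. The change was positive in all 16 alternative fits and passed in 5 of them, and it did not pass in any edgeR fit that left out a library (log2 fold change 2.08 to 2.64, adjusted p 0.0672 to 0.168). With a covariate for Y-linked expression it was 1.70 with an adjusted p of 0.387. An exact permutation test of 3 against 3 samples, two-sided, gave p = 0.1, the smallest value the design allows. GENCODE M21 places 273 exonic bases of Pitx1 under noncoding genes, 165 under antisense Gm47071 and 108 under Gm28760, which is on the same strand as Pitx1. Whether strand was used in counting is not given in the sources used here, and its use would separate reads of Gm47071 but not of Gm28760.

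The genes whose profile over the 6 samples lay nearest to that of Pitx1, by Euclidean distance of log2 values from the control mean, were looked up by a fixed rule. Among the homeobox genes tested, the nearest was Zeb2, a repressor of Cdh1, at a distance of 1.98 (n = 6 samples). Zeb2 had 0.676, 0.498 and 1.10 CPM in the controls and 5.96, 3.35 and 4.93 CPM in Pea3 TKO. Dlx3 came next, also at 1.98. Among the 11341 tested genes with a mean of at least 50 counts, the nearest were Id1, a target of BMP signaling, at 0.35 and Ptger3, a prostaglandin E receptor, at 0.50. Their fitted changes were 2.21 and 2.27 on the log2 scale. The distance includes the difference between the groups, so values near that of Pitx1 follow from the rule.

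Dlx3, the epidermal member, had 288, 148 and 82 counts in control replicates 1, 2 and 3 and 487, 349 and 233 in Pea3 TKO replicates 1, 2 and 3. In CPM these were 16.2, 9.22 and 5.33 in the controls and 30.9, 24.4 and 13.7 in Pea3 TKO. The groups overlapped, since Pea3 TKO replicate 3 lay below control replicate 1, and the spread within each group was far larger than counting error. The means were 10.3 ± 5.52 and 23.0 ± 8.69 CPM, a fitted log2 fold change of 1.16 with SE 0.42 (95% interval 0.23 to 2.09) that missed the threshold with an adjusted p of 0.0692 by edgeR's quasi-likelihood test. The exact two-sided permutation test gave p = 0.2. Dlx3 did pass by the DESeq2 Wald test (adjusted p = 0.0233), by edgeR without a low-count filter (adjusted p = 0.0491), without control replicate 1 (log2 fold change 1.66, adjusted p = 0.0134) and without Pea3 TKO replicate 3 (1.43, adjusted p = 0.0372). With the covariate for Y-linked expression the estimate was 0.46 with an adjusted p of 0.689. In fold terms the interval of the reported fit ran from 1.17 to 4.27.

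Dlx4, its neighbour on chromosome 11, had 0.958, 1.68 and 1.43 CPM in control replicates 1, 2 and 3 and 2.85, 1.61 and 0.822 CPM in Pea3 TKO replicates 1, 2 and 3. Pea3 TKO held both the highest and the lowest of the 6 values. The means were 1.36 ± 0.368 and 1.76 ± 1.03 CPM. The fitted log2 fold change of 0.38 (SE 0.70, 95% interval -1.19 to 1.94) did not pass the test (adjusted p = 0.735 by edgeR), and without Pea3 TKO replicate 1 it was -0.16. Antisense Dlx4os shares 79 exonic bases with Dlx4.

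**Figure D2:**
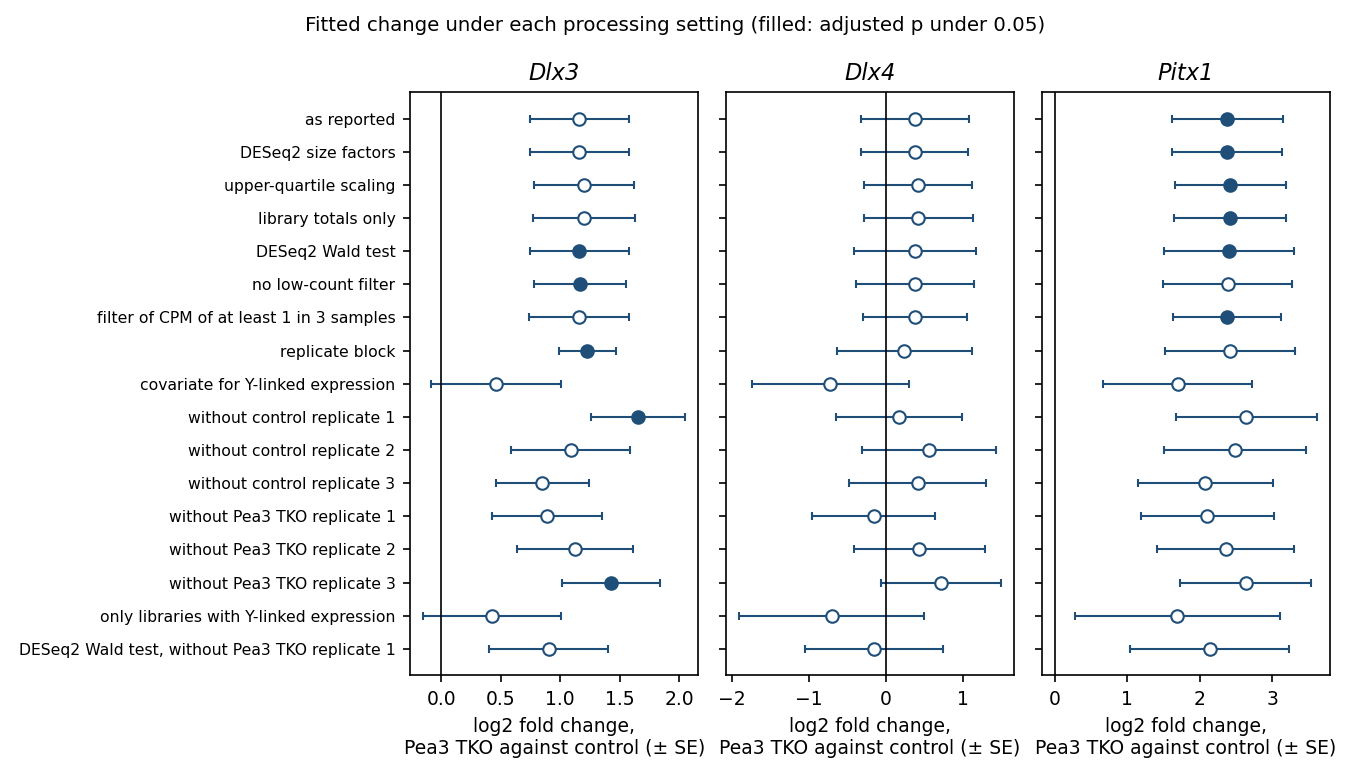
Fitted log2 fold change of Pea3 TKO against control (horizontal axis, bars are ± SE) of Dlx3, Dlx4 and Pitx1 as reported (top row) and under 16 alternative settings, with filled points where the adjusted p was under 0.05. Dlx3 and Pitx1 stayed above 0 in every setting and each passed in 5 of the 16 alternatives, while Dlx4 passed in none and fell below 0 in 4 of them.

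Msx2 had 6, 1 and 0 counts in control replicates 1, 2 and 3 and 70, 11 and 8 counts in Pea3 TKO replicates 1, 2 and 3. The corresponding levels were 0.338, 0.0623 and 0 CPM against 4.44, 0.769 and 0.470 CPM. All Pea3 TKO libraries were above all controls, but the counting interval of control replicate 1 (0.124 to 0.736 CPM) overlapped those of Pea3 TKO replicates 2 (0.384 to 1.38 CPM) and 3 (0.203 to 0.925 CPM), and Pea3 TKO replicate 1 held 70 of the 89 mutant counts. Summed over libraries the ratio was 13.3, with a counting interval of 6.18 to 34.0 that leaves out the spread between samples. Msx2 did not pass the filter. Fitted without a filter it had a log2 fold change of 3.72 with SE 1.34 (adjusted p = 0.0700 by edgeR), and DESeq2 gave 3.80 with SE 1.36 (adjusted p = 0.0239), which became 2.21 with SE 2.01 (adjusted p = 0.490) without Pea3 TKO replicate 1. It passed edgeR's filter in 4 of the fits that left out a library and was called in 1 of them, without control replicate 1 (log2 fold change 5.58, SE 1.69, adjusted p = 0.0365). The exact two-sided permutation test on its CPM gave p = 0.1.

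Msx1 went the other way at a still lower level. It had 2, 7 and 5 counts in control replicates 1, 2 and 3, or 0.113, 0.436 and 0.325 CPM, and no count in any Pea3 TKO library. Set against 3 counts over the 3 mutant libraries together (0.0637 CPM), Msx1 was at least 4.47-fold lower in Pea3 TKO, but that figure holds the control level fixed. With the counting error of both groups the ratio of Pea3 TKO to control could be as high as 0.315, and the spread between samples is in neither value. Each control interval overlapped the interval that a count of 0 allows, and the exact two-sided permutation test gave p = 0.1. Fitted without a filter its adjusted p was 0.126 by edgeR, and DESeq2 gave an unadjusted p of 0.103 and no adjusted one. RefSeq places the antisense gene Msx1as inside the Msx1 interval, so reads falling in both could have been left uncounted.

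Dlx5 had 0.451, 0.374 and 0.975 CPM in control replicates 1, 2 and 3, from 8, 6 and 15 counts, and 0, 0.629 and 0.117 CPM in Pea3 TKO replicates 1, 2 and 3, from 0, 9 and 2 counts. Pea3 TKO replicate 2 was above 2 of the 3 controls, so the groups overlapped. The ratio of summed counts was 0.396 (counting interval 0.179 to 0.817), but the fit without a filter gave -1.25 with SE 1.53 (adjusted p = 0.603 by edgeR). Dlx2 had 3 counts in control replicate 2 and none elsewhere. Dlx1 and Dlx6 were at 0 in all 6 libraries, where 3 counts over all of them would allow up to 0.0312 CPM. Of the noncoding genes of these loci, Dlx1as, Dlx6as1, Dlx6as2 and Msx1as were also at 0 in all 6 libraries. Reads shared with such antisense genes may be missing from Dlx1 and Dlx6.

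Of the 9 members, 2 were higher in every Pea3 TKO library than in every control library (Msx2, Pitx1) and 1 was lower (Msx1). Among all 16893 symbols with a count 18.9% were separated upwards and 17.3% downwards, 36.2% in all, and of the 7 members with a count 3 were separated, with too few genes to set these shares apart. In 4 members, Msx2, Dlx3, Dlx4 and Pitx1, Pea3 TKO replicate 1 was the highest and replicate 3 the lowest of its group, and in 3 of them, Msx2, Dlx3 and Pitx1, control replicate 1 was the highest and control replicate 3 the lowest. The share of all genes with these orders was not determined.

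To compare levels between genes, CPM was divided by the exonic length in kilobases (RPKM) for 217 of 218 listed homeobox genes. Of these, 94 had a count in the control samples and 97 in the Pea3 TKO samples. In control samples Dlx3 stood at 3.93 ± 2.12 RPKM, rank 27 of 217, Dlx4 at 0.415 ± 0.112, Dlx5 at 0.265 ± 0.145, Pitx1 at 0.143 ± 0.0616, Msx1 at 0.0940 ± 0.0530 and Msx2 at 0.0407 ± 0.0549 RPKM. Dlx3 was above the next member in every control library, whereas each pair of neighbours below it had overlapping values. In Pea3 TKO samples Dlx3 stood at 8.82 ± 3.33 RPKM, rank 20, followed by Pitx1 at 0.760 ± 0.283, Msx2 at 0.577 ± 0.674 (replicate 1 at 1.35, the others at 0.234 and 0.143) and Dlx4 at 0.539 ± 0.314 RPKM, and these 3 overlapped. Pitx1 moved from rank 62 to rank 40. By CPM the level of Dlx3 exceeded those of 59.8% of all symbols in control and 66.6% in Pea3 TKO. These shares include symbols without any count, since 16893 of the 23420 symbols had a count.

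**Figure D3:**
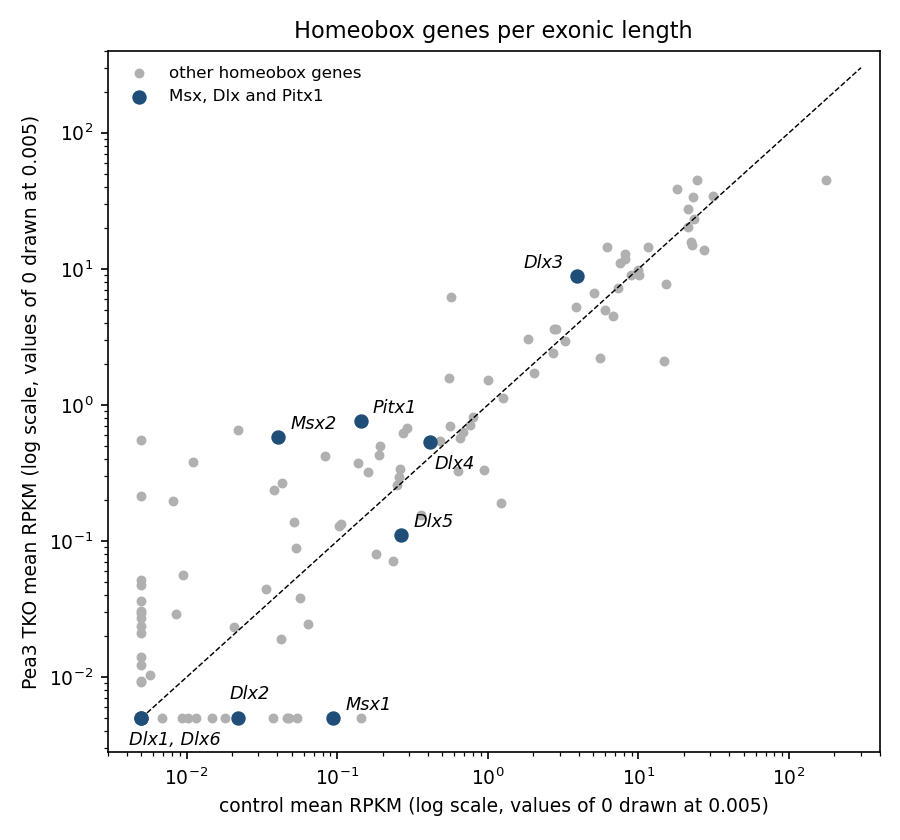
Mean expression of homeobox genes per exonic length (RPKM, log axes, values of 0 drawn at 0.005) in control samples (horizontal) and Pea3 TKO samples (vertical), each point a gene, with the 9 members in blue and equality as a dashed line. Dlx3 lay among the better expressed homeobox genes at 3.93 and 8.82 RPKM, Msx2 and Pitx1 lay above the line, and Dlx1, Dlx2, Dlx6 and Msx1 lay at 0 in Pea3 TKO.

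Most relatives of the members did not pass the test. Of 18 listed relatives from the Pitx, Alx, Otx, Barx, Prrx and other craniofacial groups, 7 were tested, 1 was higher, none was lower, and their median log2 fold change was 1.01, against 0.01 over all genes tested. The gene that passed was Otx1, a forebrain and sense organ factor of the bicoid type, with 152, 136 and 109 CPM in the controls and 290, 268 and 172 CPM in Pea3 TKO (log2 fold change 0.88, SE 0.20, adjusted p = 0.0117 by edgeR). Msx3 had 6 counts in control replicate 1 and none elsewhere. Among all 218 homeobox genes 62 were tested, of which 11 were higher and 7 lower (29.0%, against 25% over all genes tested). Their median log2 fold change was 0.34, and 108 of the 218 were at 0 in every library.

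Genes of BMP signaling, the pathway best known upstream of Msx and Dlx genes, included some that rose and some that fell, at a share near that of all genes. Of 29 listed genes 27 were tested, 5 were higher, 3 lower and 19 not called (29.6% called, against 25% over all genes tested), and their median log2 fold change was 0.01, as over all genes. The transcriptional targets split. Id1, an inhibitor of bHLH factors, had 55.8, 45.2 and 20.7 CPM in the controls and 232, 191 and 142 CPM in Pea3 TKO (log2 fold change 2.21, SE 0.32, adjusted p = 0.00137), and Id3 rose by 1.21 (SE 0.23). Id2, of the same family, went the opposite way, from 362, 430 and 470 CPM to 102, 113 and 119 CPM (log2 fold change -1.92, SE 0.13, adjusted p = 2.6e-05).

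The inhibitors Sostdc1, a secreted antagonist, and Bambi, a decoy receptor, rose by 1.78 (SE 0.23) and 1.32 (SE 0.25). The intracellular mediator Smad9 rose from at most 0.169 CPM to 0.646 to 1.33 CPM. With 3, 1 and 0 counts in control replicates 1, 2 and 3, Smad9 was tested only through the Pea3 TKO libraries, where it was high. Of the ligands, Bmp7 fell by 0.59 on the log2 scale (SE 0.11), and the receptor Acvr2b fell by 0.56 (SE 0.16). Bmp4, the ligand best known to induce Msx genes, had 0.338, 3.30 and 0.975 CPM in the controls and 2.79, 3.14 and 0.470 CPM in Pea3 TKO, and these overlapped (log2 fold change 0.47, SE 0.94, adjusted p = 0.756). Adjusted p-values in the lists are from the same edgeR fit.

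**Figure D4:**
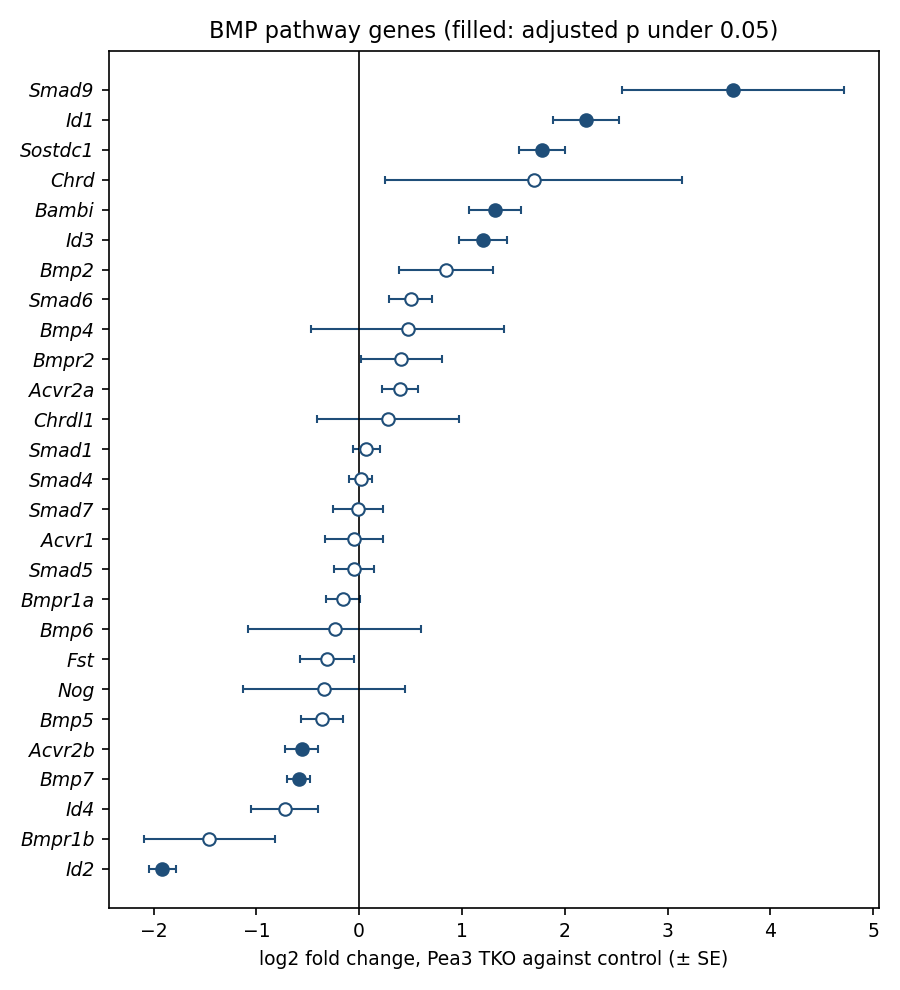
Fitted log2 fold change of Pea3 TKO against control (horizontal axis, bars are ± SE) for the 27 tested BMP pathway genes, with filled points where the adjusted p was under 0.05. Id1, Id3, Sostdc1, Bambi and Smad9 lay to the right and Id2, Bmp7 and Acvr2b to the left, with Bmp4 near 0.47 and not called.

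Regulators of surface ectoderm, the setting in which Dlx3 and Dlx4 are best known, were 16 listed genes of which 15 were tested. In this list 5 were higher and 2 lower (46.7% called, against 25% over all genes tested), with a median log2 fold change of 0.19. The higher genes included Grhl3, a factor of epidermal barrier formation, with 83.4, 30.4 and 33.5 CPM in the controls and 210, 184 and 152 CPM in Pea3 TKO (log2 fold change 1.89, SE 0.34, adjusted p = 0.00417), and Sfn, Klf5, Ovol1 and Perp. Tfap2b fell by 1.07 (SE 0.15) and Tfap2c by 0.45 (SE 0.12). The estimate for Trp63, the basal epithelial factor upstream of Dlx3, was -0.04 with SE 0.23 and an adjusted p of 0.921. Among 16 cofactors and other regulators tied to Dlx, Msx and Pitx genes, 12 were tested, 3 were higher and 1 lower, with a median of 0.19. The share called was 33.3%, against 25% over all genes tested. Edn1, the endothelin ligand upstream of Dlx5 and Dlx6 in the jaw, had 11.5, 9.97 and 6.11 CPM in the controls and 26.6, 22.5 and 19.7 CPM in Pea3 TKO (log2 fold change 1.32, SE 0.28). The TALE homeobox gene Meis1 rose by 0.54 (SE 0.12), and the repressor Tbx2 fell by 3.16 (SE 0.80).

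Among genes within 200 kb of a member, 26 were listed, 18 were tested, 4 were higher and none was lower, against 13.6% called higher over all genes tested, so the count is near the background. Beside Dlx3 and Dlx4, Pdk2, a mitochondrial kinase, rose by 1.77 (SE 0.23) and Ppp1r9b, a cytoskeletal scaffold, by 0.97 (SE 0.29), while Itga3, which lies nearer to Dlx3 than either, had an estimate of -0.04 (SE 0.13) that did not pass. Beside Msx2, Sptlc1 of sphingolipid synthesis rose by 0.57 (SE 0.12). Pcbd2, near Pitx1, rose by 0.70 (SE 0.23, adjusted p = 0.0489).

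Markers of epidermis and of conjunctiva and cornea moved with the groups. The markers of the labelled tissue were present in every library, with Epcam at 1200 to 1499 CPM and the eye surface factor Pax6 at 183 to 240 CPM in control and 426 to 486 CPM in Pea3 TKO. Of 11 epidermal markers, all tested, 10 were higher (90.9%, against 13.6% called higher over all genes tested). The sum of the 11 was 1276, 387 and 265 CPM in control replicates 1, 2 and 3 against 7188, 6042 and 4862 CPM in Pea3 TKO replicates 1, 2 and 3. The order of the libraries within each group was that of Dlx3, Pitx1 and Msx2, the 3 members with replicate 1 highest and replicate 3 lowest in both groups. The other members lacked that order in at least 1 group, and its share among all genes was not determined, so the match is no test. For Msx2 the order rested on 1 against 0 counts in control replicates 2 and 3 and on 11 against 8 in Pea3 TKO. The 5 listed markers of conjunctiva and cornea were all higher, summing to 0.585 to 6.03 CPM against 47.0 to 70.4 CPM. Their order in Pea3 TKO was another one, with 70.4, 47.0 and 56.0 CPM in replicates 1, 2 and 3. In bulk samples such as these, more cells of a type and more RNA per cell cannot be told apart, and the part of these tissues in the levels of Dlx3, Pitx1 and Msx2 was not tested.

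Of 20 mesenchymal markers 16 were tested, 3 were higher and 1 lower (25% called, as over all genes tested), and their median log2 fold change was 1.73. The marker sums were 197, 300 and 359 CPM in the controls and 588, 754 and 150 CPM in Pea3 TKO replicates 1, 2 and 3. The matrix gene Dcn had 1.07, 0.249 and 4.42 CPM in the controls and 69.6, 73.5 and 2.41 CPM in Pea3 TKO replicates 1, 2 and 3 (log2 fold change 4.68, adjusted p = 0.0165 by edgeR). Lum, of the same family, rose by 3.82 (adjusted p = 0.0423 by edgeR), but the groups overlapped. Its levels were 0.338, 1.43 and 8.38 CPM in the controls and 60.45, 79.9 and 2.05 CPM in Pea3 TKO replicates 1, 2 and 3. The transcription factor Osr1 rose by 2.19 (adjusted p = 0.0398 by edgeR), while the fibrillin gene Fbn1 fell by 1.60 (adjusted p = 0.00227 by edgeR). The lacrimal mesenchyme ligand Fgf10 was at 0 in all Pea3 TKO libraries and at most 1.10 CPM in the controls, and Tcf21 was at 0 throughout. The part of mesenchyme in the levels of the members was not tested. Lens and retina markers summed to 151 to 888 CPM in control and 144 to 265 CPM in Pea3 TKO, with the 888 CPM in control replicate 2. Sums were 36.8 to 99.7 against 49.0 to 204 CPM for blood and immune cells, 2.49 to 3.44 against 0.176 to 7.76 CPM for endothelium, 0.451 to 4.30 against 0.381 to 3.93 CPM for muscle and 1.56 to 5.92 against 1.89 to 2.82 CPM for neurons and Schwann cells. Of 10 epithelial markers 8 were higher (80%, against 13.6% called higher over all genes tested). The sums of the 10 were 3384 to 4566 CPM in control and 7040 to 8588 CPM in Pea3 TKO.

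**Figure D5:**
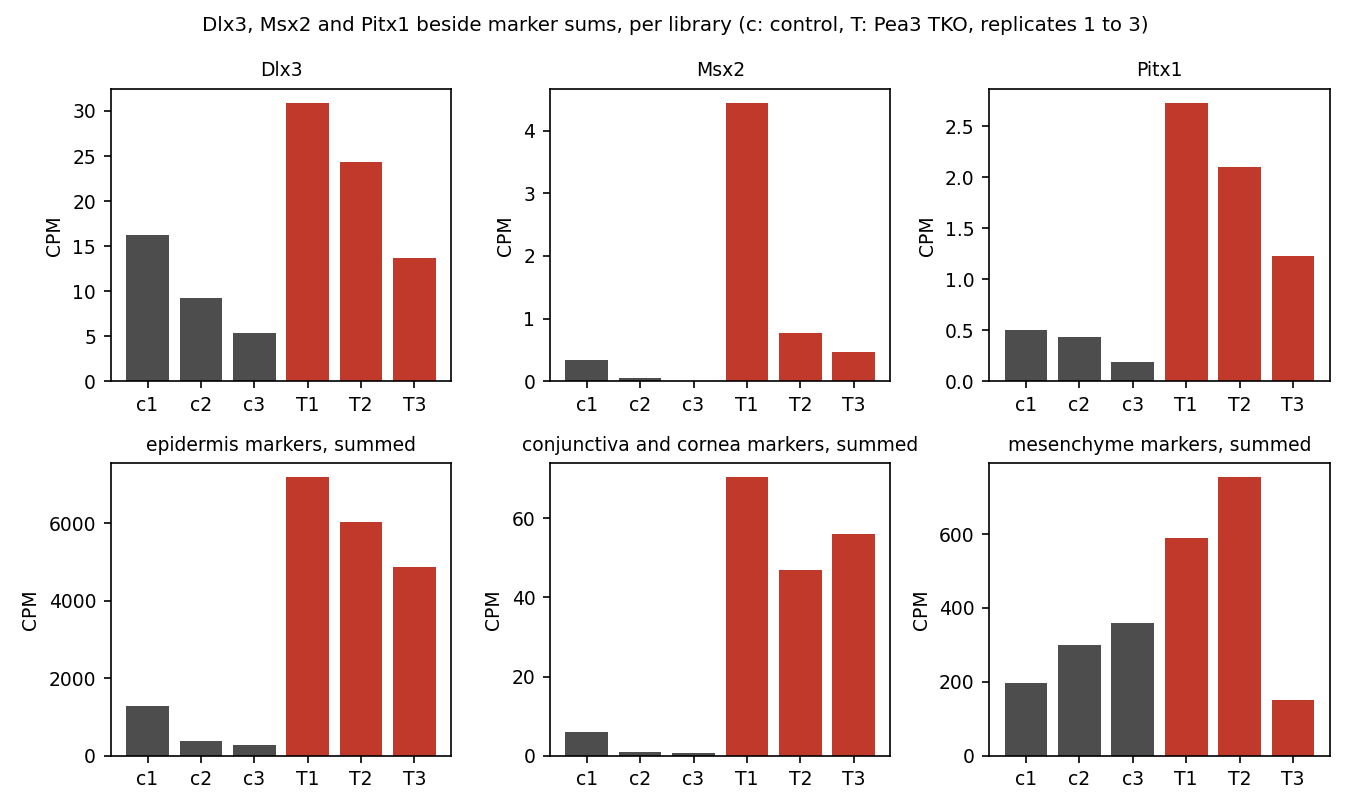
Levels of Dlx3, Msx2 and Pitx1 (upper row) and summed levels of epidermis, conjunctiva and cornea, and mesenchyme markers (lower row) in each library, in CPM, for control replicates (grey, c1 to c3) and Pea3 TKO replicates (red, T1 to T3), each bar 1 library. Within each group the epidermal sum had the same order of libraries as the 3 genes, from 1276 to 265 CPM in control and from 7188 to 4862 CPM in Pea3 TKO. The 3 genes drawn are the members with that order in both groups, so the match is no test. The conjunctiva and cornea sum had that order in control alone, and the mesenchymal sum in neither group.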

How the data were processed

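RNA from laser-captured lacrimal gland buds of 3 control and 3 Pea3 TKO samples was amplified and sequenced by the authors, who deposited raw, unnormalized counts per gene symbol in a separate table for each sample. The submitters' processing notes name bcl2fastq 2.17, STAR 2.5.2b, featureCounts 1.5.0-p3, DESeq and the build mm10. The annotation, the use of strand and the treatment of reads in overlapping genes are not given in the sources used here. By default featureCounts leaves out a read that falls in more than 1 gene.

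Groups followed the genotype labels. Genes were filtered with filterByExpr, which kept 13087 of 23420 symbols, scaled by TMM and compared by the quasi-likelihood test of edgeR 4.0.16 (R 4.3.3) with a single term for condition, p-values being adjusted by Benjamini-Hochberg over all genes tested and called at 0.05. DESeq2 1.42.0, other scalings and filters, a replicate block, a covariate for Y-linked expression and leaving out each sample were the alternatives. Single values were compared by exact permutation. Levels in RPKM used exonic lengths of GENCODE M21, which matched 21740 symbols. The scripts were tested on simulated counts. Replicate libraries differed far beyond sampling noise (chi-square per degree of freedom of at least 15.5).

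The members and gene lists were chosen with earlier results of these data known. The text names the members, the targeted genes, up to 4 genes with the smallest p in each direction of each list of regulators, noncoding genes of the loci and the profiles nearest to a called member. Smad9, Ovol1, Bmp4, Msx3, Trp63, the neighbouring genes and single markers were chosen after their values were seen. Some items are not reported here.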

Additional observations from a re-analysis of the deposited data

How the results depend on the processing

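By edgeR the call of Pitx1 was lost without a low-count filter and whenever a library was left out, but another filter and DESeq2 with all 6 libraries kept it. Of 16 alternative fits, 5 kept it, namely DESeq2 size factors, upper-quartile scaling, library totals only, a filter of CPM of at least 1 in 3 samples, and the DESeq2 Wald test. Its log2 fold change was 2.39 without a low-count filter (adjusted p = 0.0814), 1.70 with a covariate for Y-linked expression (adjusted p = 0.387), 1.69 in the 4 libraries with Y-linked expression (adjusted p = 0.544, added after the data were seen) and 2.08 to 2.64 when 1 library was left out, and it did not pass in any of these. Dlx3 passed by the DESeq2 Wald test (1.16), without a low-count filter (1.16) and in 2 of the 6 fits without 1 library (range 0.85 to 1.66, the highest without control replicate 1), and its estimate was 0.46 with the covariate and 0.43 in the libraries with Y-linked expression. Dlx4, never called, turned negative with the covariate (-0.72), in the libraries with Y-linked expression (-0.71) and without Pea3 TKO replicate 1 (-0.16 by either tool, range -0.16 to 0.72). The number of members past the threshold, 1 as reported, was 3 by DESeq2 (Pitx1, Dlx3 and Msx2), 0 with the covariate, 0 in the libraries with Y-linked expression and 0 to 2 when a library was left out, the 2 being Dlx3 and Msx2 without control replicate 1. DESeq2 without Pea3 TKO replicate 1, added after the data were seen, called none of them, with Pitx1 at 2.14. The cause of these differences was not tested.

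Whether the replicate numbers pair the samples is not given in the labels, and correlations over so few samples cannot decide it. Deviations from the group means correlated at 0.11, -0.04 and -0.02 for samples sharing a number and at a mean of -0.01 for those with different numbers. With the replicate block Dlx3 passed (1.23, adjusted p = 0.00772), Pitx1 did not (2.41, adjusted p = 0.0851), Dlx4 was 0.24, 1 member was called and 3191 genes passed.

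Over all genes 3268 passed as reported (1783 higher, 1485 lower), 865 with the covariate (538 higher, 327 lower), 597 in the libraries with Y-linked expression (315 higher, 282 lower) and 1948 to 3344 without 1 library (1131 to 1948 higher, 799 to 1417 lower), with the fewest without control replicate 3. Leaving out control replicate 2 gave 1963 and leaving out Pea3 TKO replicate 2 gave 2072. Sex was uneven between the groups, and among the mutants Pea3 TKO replicate 3 alone had Y-linked expression. That library also had the lowest mesenchymal marker sum of its group, 150 CPM against 588 and 754 CPM in replicates 1 and 2. The fits with the covariate or the libraries with Y-linked expression therefore cannot tell sex apart from other differences of that library. Etv1, Etv4 and Etv5 passed as lower in every alternative. The 6 members that were not tested had too few counts to pass the filter, and 2 of them had none.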
